A study of Mus musculus with 36 samples.

Results

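The data compared here are the transcriptomes of macrophages washed from the peritoneal cavity of Apoe-deficient mice at an advanced and at a baseline stage of atherosclerosis. They comprise 8 of the 36 libraries of the study, all those that the sample titles label as peritoneal macrophages of these stages, with 4 libraries in each group. The advanced group had been on a high cholesterol diet for 6 months, and the baseline group was on chow. Every mouse carried the Apoe knockout, so no group here has a functional Apoe gene, and the labels give neither age nor sex. The study also holds aortic macrophages, monocytes from blood and spleen, and an early stage after 1 month of diet, with 4 libraries in each of its 9 groups. The monocytes of the same stages (8 libraries) and the early peritoneal libraries are used below only to set the peritoneal values beside them.

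Peritoneal macrophages of mice are mostly large, self-renewing resident cells that depend on the transcription factor GATA6, with a small subset of monocyte-derived cells marked by Ccr2 and MHC class II. They take up dead cells, lipoproteins and microbes through scavenger receptors, and they are not in the arterial wall, so they show how a resident macrophage outside the lesion looks in a hypercholesterolaemic animal. Mice without apolipoprotein E clear cholesterol-rich lipoprotein remnants poorly and develop atherosclerosis, which a high cholesterol diet speeds up. A stage therefore stands for diet and its duration, and whatever age difference goes with them.

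The advanced libraries held 1.67 to 2.21 M counted reads (mean 1.89 ± 0.231, SD, n = 4) and the baseline libraries 9.25 to 14.3 M reads (11.4 ± 2.21, n = 4). Each advanced library was shallower than each baseline library (exact two-sided permutation p = 0.0286, the smallest that 4 against 4 allows), so stage and depth cannot be told apart. With all libraries thinned to the shallowest total, 12200 ± 289 genes were detected in advanced and 12100 ± 128 in baseline libraries (exact permutation p = 0.686). The ribosomal RNA precursor Rn45s took 15.1 ± 3.18% of advanced reads and 11.9 ± 3.75% of baseline reads (exact permutation p = 0.314). Spearman correlations of log CPM (counts scaled to a library total of 1 M, where M is 1e6 reads) were 0.966 to 0.98 among the advanced and 0.976 to 0.992 among the baseline libraries, against 0.961 to 0.973 between the groups. Baseline library 4 stood apart from the other baseline libraries (0.976 to 0.98 with them, against 0.989 to 0.992 among the other 3). It is not stated if each library is its own mouse, and p-values here cover just the spread among these 8 libraries, which may be technical.

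At the advanced stage 450 genes were higher and 407 were lower among 10563 genes tested with edgeR's quasi-likelihood test at a Benjamini-Hochberg adjusted p under 0.05. That is 8.11% of the genes tested, with 4.26% higher and 3.85% lower, and the median log2 fold change of all tested genes was 0. The counts of list members below stand against these shares. The lists and their members were chosen with earlier results of these data known, so setting a count beside these shares is not a test. Of the 857 genes, 156 changed by at least 1 on the log2 scale (76 higher, 80 lower), and 715 had advanced and baseline libraries that did not overlap in CPM. Over all tested genes, the advanced libraries lay wholly above the baseline libraries in 4.67% and wholly below them in 9.85%. The number of calls depended on single libraries: it was 373, 552 and 1356 without baseline library 1, 2 or 4, and 266 and 380 without advanced library 3 or 4. In bulk RNA a change in the share of a cell subset and a change in RNA per cell cannot be told apart, and this holds for each gene below.

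**Figure D1:**
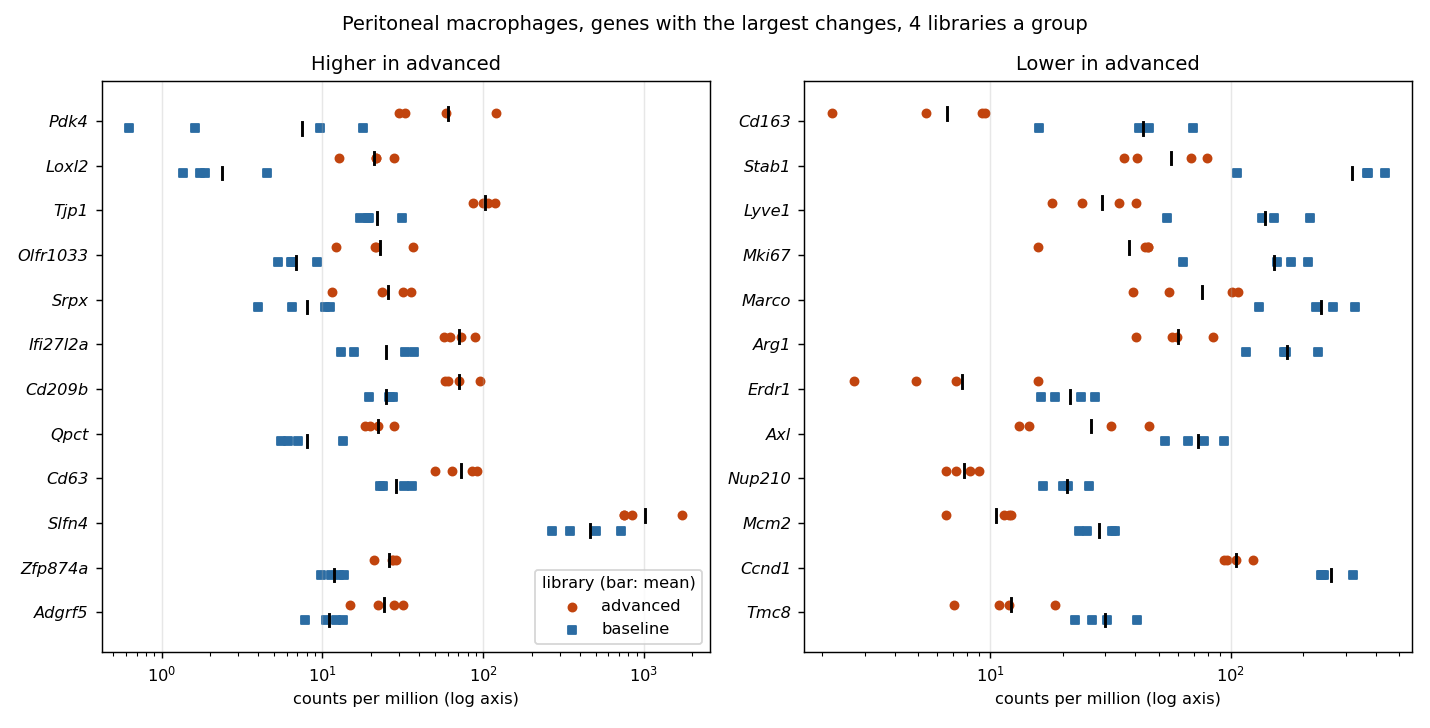
CPM (log axis) of 12 genes that rose and 12 that fell, those that changed most among the ones that passed the test, had no overlap between groups and averaged at least 20 CPM in the higher group. Circles are the 4 advanced and squares the 4 baseline libraries, and black bars are group means. Tjp1 has advanced libraries from 85.9 to 119 CPM and baseline libraries from 17.1 to 31.4 CPM, and Stab1 has advanced libraries from 36.1 to 79.6 CPM and baseline libraries from 106 to 436 CPM.

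Macrophage markers were high in both groups, with list sums of 32800 to 41600 CPM in advanced and 25300 to 30400 CPM in baseline libraries, mostly from Lyz2. Of 12 tested, Lyz2 was higher and Cd68 and Cd163 were lower, with a median of -0.12. Over all genes 4.26% were higher and 3.85% lower. Adgre1, which encodes F4/80, had 2310, 1990, 1890 and 2120 CPM in the advanced libraries, against 2000, 1960, 2060 and 1500 CPM in the baseline libraries. Gata6, the defining transcription factor of the large resident cells, had 163, 174, 161 and 164 CPM in advanced and 168, 157, 170 and 181 CPM in baseline libraries. The groups overlapped for both genes, with log2 fold changes of 0.23 ± 0.1 (SE; edgeR adjusted p = 0.196) for Adgre1 and 0.04 ± 0.09 (adjusted p = 0.814) for Gata6. Icam2, an adhesion molecule of large peritoneal macrophages, had a log2 fold change of -0.16 ± 0.1 (adjusted p = 0.377). Timd4, a phosphatidylserine receptor of long-lived resident macrophages, had 366 to 581 CPM in advanced and 583 to 654 CPM in baseline libraries. Its groups did not overlap, but the change missed the threshold (-0.33 ± 0.13, adjusted p = 0.132), which it passed with offsets for base composition and transcript length (-0.46, adjusted p = 0.0457). Apoe itself had 3.17 to 5.46 CPM in advanced and 5.4 to 7.83 CPM in baseline libraries (adjusted p = 0.271), and with no wild-type group here these levels cannot be set against an intact gene.

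Summed over the lists of other cell types, mesothelial and fibroblast markers reached 0 to 1.8 CPM in advanced and 0.21 to 0.677 CPM in baseline libraries, with Msln, Upk3b, Wt1, Upk1b, Pdgfra and Dpt at 0 in all 8. Adipocyte markers reached 0 to 1.2 CPM in advanced and 0.761 to 2.05 CPM in baseline libraries, and eosinophil markers 1.09 to 3.6 and 1.61 to 6.16 CPM. B cell markers summed to 15.4 to 68.4 CPM in advanced and 3.84 to 69.1 CPM in baseline libraries. T and NK cell markers summed to 4.92 to 16.2 CPM in advanced and 3 to 13.4 CPM in baseline libraries. Mast cell markers summed to 49.6 to 139 CPM in advanced and 56.4 to 90.2 CPM in baseline libraries, and endothelial markers to 0.546 to 3.6 and 2.79 to 4.54 CPM. Neutrophil markers summed to 267 to 304 CPM in advanced and 256 to 318 CPM in baseline libraries, of which Csf3r alone held 250 to 297 and 246 to 291 CPM. Erythroid and platelet markers summed to 420 to 584 CPM in advanced and 471 to 719 CPM in baseline libraries, of which Pf4 alone held 420 to 583 and 471 to 718 CPM. Few of these markers were high enough to be tested: 9 B cell, 6 mast cell and 3 neutrophil markers, 1 each of T and NK cells, eosinophils, erythroid cells and platelets, and endothelium, and 0 of mesothelial and fibroblast cells and of adipocytes. No tested member passed with edgeR or DESeq2. Of their tested genes, 1 mast cell, 1 neutrophil and 1 endothelial marker had an unadjusted edgeR p under 0.05, and 1 mast cell marker passed with limma-voom. Monocyte markers, at 146 to 184 CPM in advanced and 145 to 185 CPM in baseline libraries, held 1 passing gene of 6 tested, Ccr2. Dendritic cell markers, at 62.3 to 126 CPM in advanced and 70.5 to 111 CPM in baseline libraries, held 2 of 4, Cd209a (higher) and Irf8 (lower). Over all genes tested 8.11% passed. The call of Irf8 was lost in 6 of the 8 fits with 1 library left out (highest adjusted p = 0.067) and with offsets for base composition and transcript length (edgeR adjusted p = 0.0506).

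Of the lower genes with at least 20 CPM in baseline libraries and no overlap, those with the largest change were the scavenging or endocytic receptor genes Cd163, Stab1 and Lyve1. Stab1 encodes stabilin-1, which takes up modified lipoproteins and apoptotic cells, and lies at chr14:31139017-31168651 of GRCm38. It had 36.1, 40.8, 68.1 and 79.6 CPM in the advanced libraries, against 436, 371, 367 and 106 CPM in the baseline libraries. All advanced libraries were below all baseline ones, and baseline library 4 was far below the other baseline libraries. The fall was 2.39 on the log2 scale (log2 fold change -2.39 ± 0.38, edgeR adjusted p = 0.00493). Cd163, the receptor of haemoglobin bound to haptoglobin, had 2.19, 5.4, 9.26 and 9.5 CPM in advanced and 69.7, 41.6, 45.7 and 15.9 CPM in baseline libraries (-2.58 ± 0.47, adjusted p = 0.00958). Lyve1, a hyaluronan receptor, had 40.4, 18, 34.3 and 24 CPM in advanced and 213, 134, 151 and 54.2 CPM in baseline libraries (-2.14 ± 0.36, adjusted p = 0.00598). Folr2, a folate receptor, had 2.4 to 9.95 CPM in advanced and 9.71 to 34.8 CPM in baseline libraries. Its groups overlapped, and its call (-1.64 ± 0.44, adjusted p = 0.041) was kept only without baseline library 3 or 4 (highest adjusted p = 0.0977, without advanced library 1). In all 4 of these genes baseline library 4 was the lowest baseline library and library 1 the highest. Stab1, Cd163 and Lyve1 passed in each of the 8 fits that left out 1 library, but in a fit that also held the 4 early libraries Stab1 (edgeR adjusted p = 0.055) and Cd163 (0.0994) did not pass.

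Of 15 scavenger receptor genes tested, 5 were lower and 1 was higher, against 3.85% lower and 4.26% higher over all genes, with a list median of -0.11. Beside Stab1 and Cd163 the lower genes were Marco, Lrp1 and Cd68. Marco, a collagenous receptor for bacteria and particles, had 39.3, 107, 101 and 55.2 CPM in advanced and 266, 225, 327 and 131 CPM in baseline libraries (-1.57 ± 0.29, edgeR adjusted p = 0.00947). Lrp1, a large endocytic receptor that binds lipoprotein remnants, had 2380, 2060, 1610 and 1570 CPM in advanced and 3530, 3240, 3090 and 2790 CPM in baseline libraries (-0.66 ± 0.12, adjusted p = 0.0105). Cd68, a late endosomal glycoprotein, had 161 to 202 CPM in advanced and 234 to 355 CPM in baseline libraries (-0.64 ± 0.12, adjusted p = 0.0105). The main receptors for oxidised lipoprotein were not among the calls: Cd36 had a log2 fold change of 0.31 ± 0.11 (adjusted p = 0.114), and Msr1 of 0.1 (adjusted p = 0.596). The higher member, Colec12 (0.4 ± 0.11, adjusted p = 0.0433), lost its call without baseline library 1 or 3 or any 1 advanced library. The count of lower members was 5 or 6 in each fit that left out 1 library, 6 without library 4 of both groups, and 4 with offsets for base composition and transcript length, which ended the call of Lrp1 (-0.38, adjusted p = 0.0742).

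Receptors and bridging molecules for dead cells had 3 lower and 1 higher of 19 tested, against 3.85% lower and 4.26% higher over all genes, with a median of -0.11. The count of lower members was 5 without baseline library 4 and 7 without library 4 of both groups. Axl, a receptor kinase that binds apoptotic cells through GAS6, had 31.7, 45.6, 13.1 and 14.5 CPM in advanced and 93.4, 66.4, 77.4 and 53.4 CPM in baseline libraries, without overlap (-1.42 ± 0.28, edgeR adjusted p = 0.0123). Stab1 and Lrp1 were the other lower members. The higher member was Pros1, which encodes protein S, a bridging ligand and anticoagulant (0.34 ± 0.09, adjusted p = 0.0344), which lost its call in 6 of the 8 fits with 1 library left out (highest adjusted p = 0.133, without advanced library 3).

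Of 14 genes of alternative activation tested, 2 were lower and none was higher, with a median of -0.01. Over all genes 3.85% were lower and 4.26% higher. The lower members are named next. They were Cd163 and Arg1. Arg1, the arginase that competes for the substrate of nitric oxide synthase, had 56.8, 59.4, 84.4 and 40.2 CPM in advanced and 169, 116, 166 and 231 CPM in baseline libraries. The groups did not overlap, and baseline library 4 was the highest rather than the lowest (-1.45 ± 0.23, edgeR adjusted p = 0.00549). Genes that mark small peritoneal macrophages had 3 lower and 1 higher of 12 tested (median -0.11), against the same shares over all genes. Lyve1, Folr2 and the chemokine receptor Ccr2 were lower, and the lectin Cd209a was higher. Ccr2 was low in both groups, at 3.17 to 6.6 CPM in advanced and 7.64 to 12.3 CPM in baseline libraries (-1.12 ± 0.28, adjusted p = 0.03), and lost its call without baseline library 1 or 2 or advanced library 3 or 4 (highest adjusted p = 0.103). Cd209a had 18.6, 28.2, 67.5 and 60.6 CPM in advanced and 16.7, 18.7, 10.7 and 5.38 CPM in baseline libraries (1.89 ± 0.41, adjusted p = 0.0174), but 0.0841 without advanced library 3 and 0.0738 without advanced library 4. None of the 12 MHC class II genes tested passed with edgeR, DESeq2 or limma-voom, 0 had an unadjusted p under 0.05, and the median was -0.22. H2-Ab1 had 11.5 to 28.2 CPM in advanced and 7.06 to 52.1 CPM in baseline libraries.

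**Figure D2:**
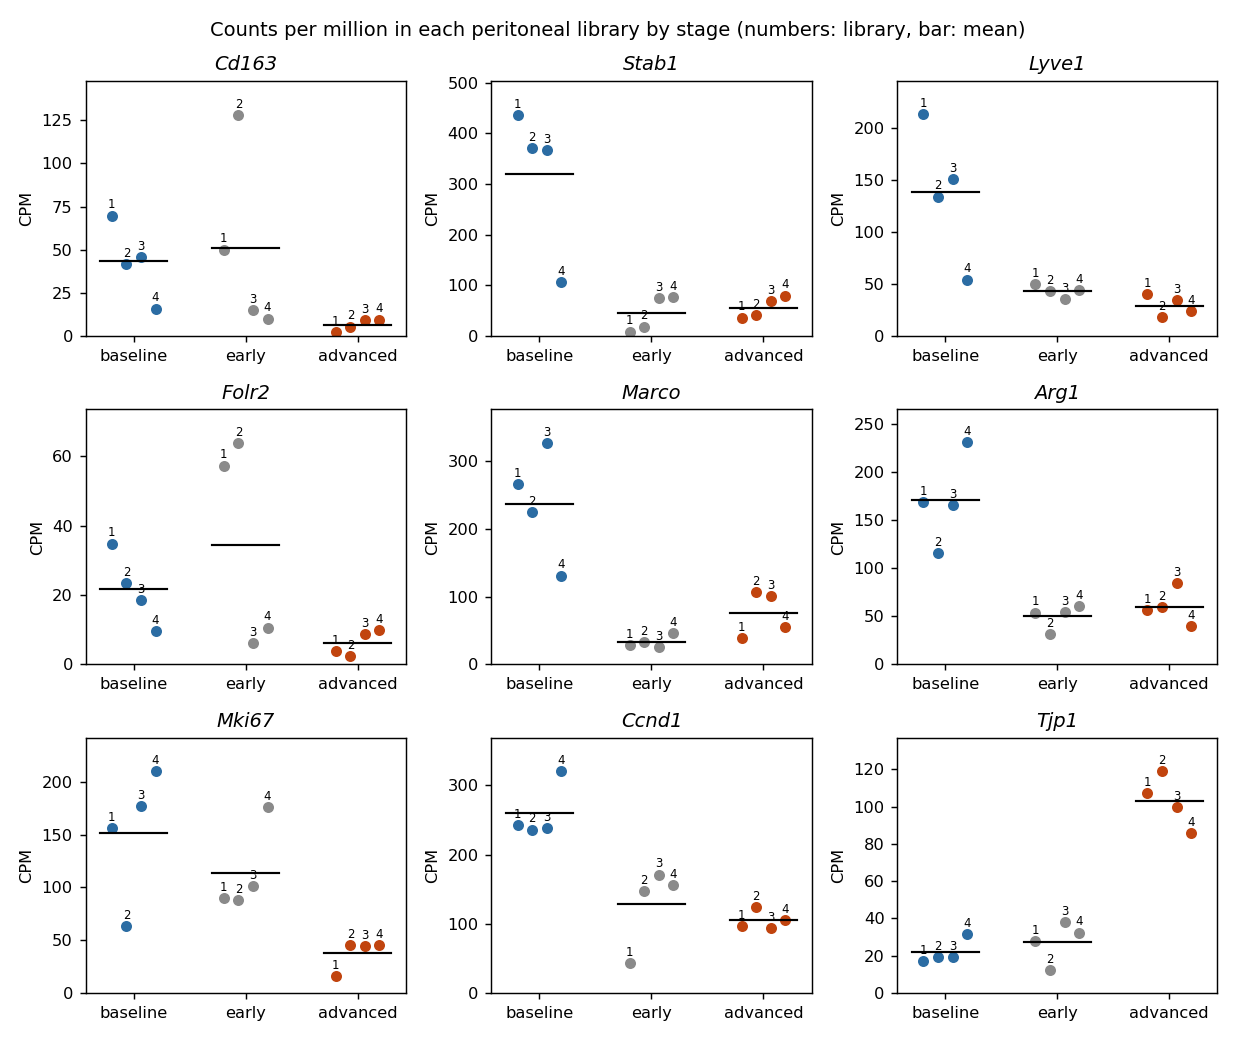
CPM (linear axes from 0) in each of the 12 peritoneal libraries, by stage in time order, with the library number beside each point and the group mean as a bar. Stab1, Lyve1, Marco and Arg1 are low at the early stage as well, whereas Tjp1 is high in the 4 advanced libraries only, and baseline library 4 is the lowest baseline library for Cd163, Stab1, Lyve1, Folr2 and Marco. The early libraries are as shallow as the advanced ones.

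The early libraries are set beside the others as values only. They held 1.31 to 2.56 M reads, a depth like that of the advanced libraries (1.67 to 2.21 M). The baseline libraries held 9.25 to 14.3 M reads. For a level shared by early and advanced libraries, diet and depth therefore cannot be told apart. In Marco the early libraries had 29.1, 32.8, 25.9 and 46.1 CPM, in Arg1 53.9, 31.7, 54.1 and 60.9 CPM, and in Lyve1 50, 43, 35.8 and 44 CPM, each below all 4 baseline libraries. Early libraries 1 and 2 stood apart from the other early ones, with 897 and 1310 CPM of Ccr2 against 48 and 24.4 CPM, and Cd163 and Folr2 were high in these libraries. Of the 12 lower genes with the largest change, the advanced libraries lay below all 4 early libraries in 4, and of the 12 higher genes they lay above all 4 early libraries in 7. Over all tested genes these shares were 4.02% and 3.58%, and over all lower and all higher calls 20.1% and 22.4%. These genes were ranked on the same advanced values, so the counts are not a test. In a fit of all 12 peritoneal libraries, in which the early group widens the spread, 86 genes passed, all of them among the 857.

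Of 32 tested genes of the large peritoneal macrophage programme, 3 were higher (Nt5e, Cd93 and Cxcl13) and 3 were lower (Marco, Padi4 and Fn1), against 4.26% higher and 3.85% lower over all genes, and the median was 0.09. The count of higher members was 6 without baseline library 4 or without library 4 of both groups, 2 without baseline library 1 or advanced library 3 or 4, and 7 with DESeq2 or limma-voom. The count of lower members was 2 without baseline library 1 and 3 in each other fit with 1 library left out. Nt5e, the ecto-nucleotidase CD73 that makes adenosine, had 254, 333, 321 and 274 CPM in advanced and 129, 119, 140 and 192 CPM in baseline libraries, with no overlap (1.09 ± 0.16, edgeR adjusted p = 0.0038). Cd93, a C-type lectin receptor, had 608 to 669 CPM in advanced and 449 to 527 CPM in baseline libraries (0.5 ± 0.09, adjusted p = 0.00785). Cxcl13, the chemokine that draws B cells, had 1780, 1100, 2700 and 2150 CPM in advanced and 837, 1160, 900 and 1030 CPM in baseline libraries, where advanced library 2 lay within the baseline range (1.06 ± 0.23, adjusted p = 0.0175). On the lower side, Padi4, a peptidylarginine deiminase, had 605 to 731 CPM in advanced and 868 to 1150 CPM in baseline libraries (-0.54 ± 0.1, adjusted p = 0.0102). Fn1, fibronectin, fell by 0.57 on the log2 scale, with 30600 to 42700 CPM in advanced and 51900 to 59400 CPM in baseline libraries (adjusted p = 0.013), and it alone made up several percent of all reads. Lyz2, the macrophage lysozyme, was higher, with 26600, 23300, 32900 and 31800 CPM in advanced and 19800, 19400, 19700 and 16900 CPM in baseline libraries (0.68 ± 0.13, adjusted p = 0.00959). Its near-identical neighbour Lyz1 could share reads with it.

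Of 37 cell cycle genes tested, 10 were lower and none was higher, against 3.85% lower over all genes, and 34 of the 37 had a negative log2 fold change, with a median of -1.03. Summed over the list, advanced libraries held 533, 748, 637 and 645 CPM, against 1280, 878, 1370 and 1370 CPM in baseline libraries, so all advanced libraries lay below all baseline ones and baseline library 2 was the lowest baseline library. Ccnd1, cyclin D1, which drives entry into the cycle, had 96.7, 124, 93.7 and 105 CPM in advanced and 243, 236, 238 and 321 CPM in baseline libraries (-1.24 ± 0.15, edgeR adjusted p = 0.00168). Mki67, the proliferation antigen Ki-67, had 15.8, 45, 44.1 and 45.2 CPM in advanced and 156, 63.2, 177 and 210 CPM in baseline libraries (-1.94 ± 0.37, adjusted p = 0.0105). Neither gene had overlapping groups, and both passed in each fit that left out 1 library. Of the replicative helicase, Mcm2, Mcm3, Mcm4, Mcm5 and Mcm6 were lower. Mcm2 had 12, 11.4, 6.54 and 12.2 CPM in advanced and 32.9, 23.3, 32.1 and 25.2 CPM in baseline libraries (-1.34 ± 0.2, adjusted p = 0.00351). Mcm3 (-0.89 ± 0.19, adjusted p = 0.0166) lost its call without advanced library 3 (0.0655), and Mcm7 missed the threshold (-0.7, adjusted p = 0.0551). The topoisomerase Top2a (-1.38 ± 0.35, adjusted p = 0.0331) and the ribonucleotide reductase subunits Rrm1 (-0.82) and Rrm2 (-1.67) completed the lower members. Mitotic genes such as Kif11 (-1.73, adjusted p = 0.0516) and Birc5 (-1.65, adjusted p = 0.158) had values as low, at lower counts, without passing. The count of lower members was sensitive to single libraries: 19 without baseline library 2, 3 without advanced library 3, 4 without baseline library 1 or 3 or advanced library 4, and 5 without advanced library 1. It was 4 without library 4 of both groups and 9 with offsets for base composition and transcript length.

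The promoters of 3 of these lower genes, Mcm3, Mcm5 and Mcm6, carry a match to the E2F motif, the site through which E2F factors switch on DNA replication genes. They are shown as the windows of lower members with a match, and a part of E2F factors in the change was not tested. Each run is the RefSeq window of GRCm38.p6 from 250 bases before to 50 after the annotated start, 5′ to 3′ on the gene's strand, and capitals mark the matches. The Mcm3 window lies at chr1:20820263-20820562 on the minus strand, Mcm5 at chr8:75109259-75109558 on the plus strand and Mcm6 at chr1:128359656-128359955 on the minus strand.
Mcm3: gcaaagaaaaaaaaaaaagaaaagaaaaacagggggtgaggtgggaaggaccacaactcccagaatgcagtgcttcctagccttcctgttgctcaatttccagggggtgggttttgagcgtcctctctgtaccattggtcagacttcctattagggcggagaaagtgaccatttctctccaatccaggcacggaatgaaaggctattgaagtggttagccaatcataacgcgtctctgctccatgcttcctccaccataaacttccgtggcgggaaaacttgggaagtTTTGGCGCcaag
Mcm5: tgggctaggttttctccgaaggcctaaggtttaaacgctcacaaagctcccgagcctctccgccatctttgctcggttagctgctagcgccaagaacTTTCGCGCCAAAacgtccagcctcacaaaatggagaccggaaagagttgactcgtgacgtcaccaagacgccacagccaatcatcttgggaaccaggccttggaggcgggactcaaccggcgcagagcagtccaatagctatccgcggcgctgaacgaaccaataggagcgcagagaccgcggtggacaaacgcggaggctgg
Mcm6: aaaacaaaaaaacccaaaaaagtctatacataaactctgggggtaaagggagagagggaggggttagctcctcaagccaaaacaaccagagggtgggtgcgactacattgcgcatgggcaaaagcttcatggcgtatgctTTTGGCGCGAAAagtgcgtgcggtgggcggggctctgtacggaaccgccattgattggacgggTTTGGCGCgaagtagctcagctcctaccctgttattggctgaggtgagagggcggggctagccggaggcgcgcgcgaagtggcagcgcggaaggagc
The motif searched was TTTNGCGC on both strands, and it was chosen after the results were seen. Windows were at hand for 8127 of the 10563 tested genes. The letters were found 1 time in the Mcm3 window, 2 times in that of Mcm5 and 3 times in that of Mcm6, where matches on opposite strands overlap. They occurred in 3 of the 8 lower cell cycle genes with a window (37.5%), in 5 of the 30 tested cell cycle genes with a window (16.7%), in 3.25% of the windows of all lower genes and in 2.69% of those of all tested genes. Mcm7 and Cdk1 also carried a match and did not pass. A match is a run of letters and not a bound site.

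The same contrast in monocytes ran the other way for this list. In monocytes 1674 of 10404 genes passed (16.1%), and 16 of 36 cell cycle genes were higher and none lower (median 1.47), against 8.21% higher and 7.88% lower over all genes. The test of the difference in response, peritoneal macrophages minus monocytes, passed for 436 of 11355 genes (3.84%; 1.73% higher, 2.11% lower), and for 16 of the 36 cell cycle genes, all lower in the peritoneum. Mki67 differed by -3.45 (edgeR adjusted p = 0.0455), with log2 fold changes of -1.94 in peritoneal macrophages and 1.58 in monocytes. Its monocyte value alone did not pass (adjusted p = 0.149). Mcm2 differed by -2.05 (adjusted p = 0.0396), with -1.34 in peritoneal macrophages and 0.78 in monocytes, where it did not pass (adjusted p = 0.287). Ccnd1 did not follow this pattern, with -1.24 in peritoneal macrophages and -1.13 in monocytes (difference -0.01), where it did not pass (adjusted p = 0.238). The monocyte side rested in good part on advanced monocyte library 3, whose cell cycle sum was 3280 CPM, against 1030 to 1630 CPM in the other advanced and 612 to 1320 CPM in the baseline monocyte libraries. Without it, 4 cell cycle genes were higher in monocytes (median 0.68) and 4 differed in response (median difference -1.66, against -2.29 with it). Other single libraries left 9 to 24 differing members.

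**Figure D3:**
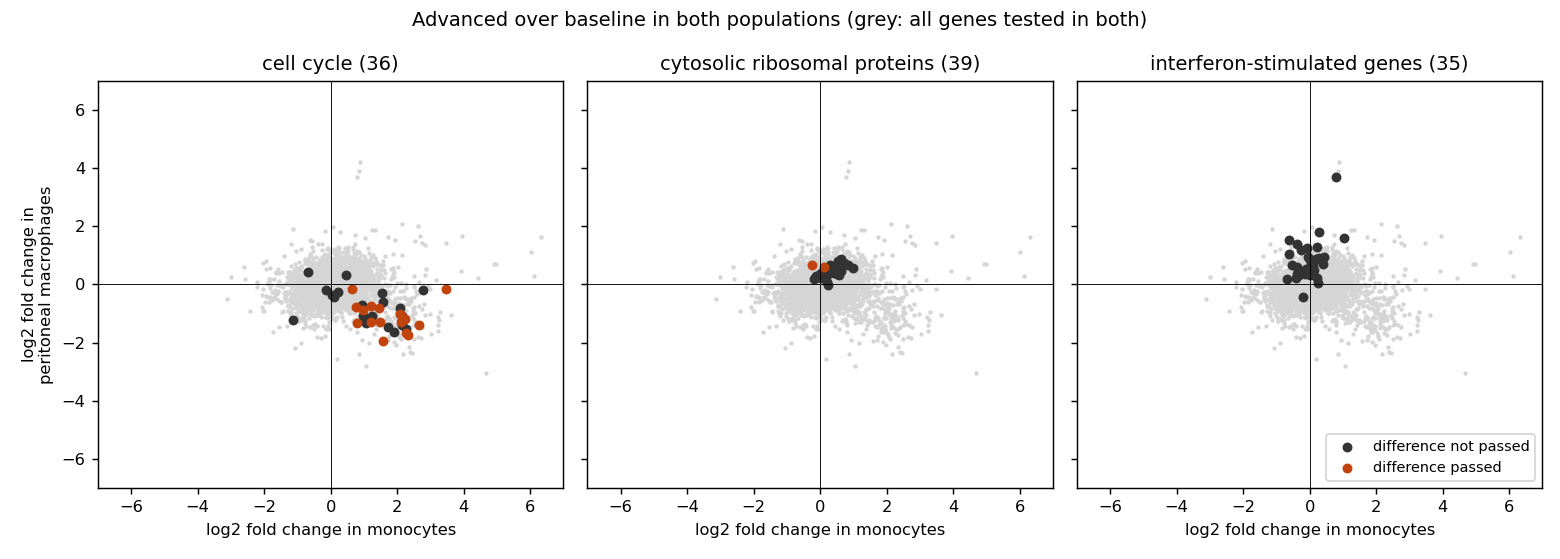
Log2 fold change of advanced over baseline in monocytes (x axis) and peritoneal macrophages (y axis) for the members of 3 gene lists, over all genes tested in both (grey). Most cell cycle genes sit lower right, below 0 in peritoneal macrophages and above 0 in monocytes, ribosomal protein genes sit above 0 in both, and interferon-stimulated genes lie above 0 in peritoneal macrophages and around 0 in monocytes. Orange points passed the test of the difference.

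Of the 778 peritoneal calls also tested in monocytes, 249 passed there in the same direction and 29 in the opposite direction, and 115 differed in response. Over all genes tested, 8.21% were higher and 7.88% lower in monocytes, and 3.84% differed in response. The calls of both populations had the same skew in base composition, given below. Monocyte depth was confounded with stage in the same way, at 0.943 to 1.69 M reads in advanced and 9.11 to 14.8 M reads in baseline libraries.

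Tjp1 was among the 12 higher genes with the largest change at 20 CPM or more and without overlap. It encodes ZO-1, a scaffold of tight junctions, and lies at chr7:65296165-65527850 of GRCm38. It had 107, 119, 99.7 and 85.9 CPM in advanced and 17.1, 19.1, 19.4 and 31.4 CPM in baseline libraries. The rise was 2.29 ± 0.2 on the log2 scale (edgeR adjusted p = 0.000218), it passed in each fit with 1 library left out, and the early libraries held 12.1 to 38.1 CPM. Loxl2, a lysyl oxidase that cross-links collagen, had 12.6, 21.6, 27.8 and 21.7 CPM in advanced and 1.35, 1.73, 1.86 and 4.54 CPM in baseline libraries (3.15 ± 0.39, adjusted p = 0.00218). Cd209b, the lectin SIGN-R1 that binds microbial sugars, had 57.6 to 95.8 CPM in advanced and 19.4 to 27.6 CPM in baseline libraries (1.59 ± 0.18, adjusted p = 0.00147). Cd63, a tetraspanin of late endosomes, had 50.3 to 90.9 CPM in advanced and 22.7 to 36.2 CPM in baseline libraries (1.42 ± 0.2, adjusted p = 0.00327). Monocytes raised Cd63 more (3.47, with a difference of -1.96 and adjusted p = 0.0424). Of the remaining genes of this ranking, Olfr1033 (1.8), Ifi27l2a (1.61) and the zinc finger gene Zfp874a (1.22) passed in each fit that left out 1 library. Srpx (1.76) and Qpct (1.49) lost their calls without advanced library 3 (adjusted p = 0.0536 and 0.0542), and Adgrf5 (1.22) without advanced library 3 or 4 (0.0562 and 0.0572). Slfn4 (1.23), an interferon-inducible schlafen gene, lost its call in 5 of the 8 fits (without baseline library 1 or 2 or advanced library 2, 3 or 4; highest adjusted p = 0.0638).

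Genes of fatty acid use included the top of the ranking. Of 29 genes of lipid droplets and fatty acid handling tested, 5 were higher and none was lower, against 4.26% higher over all genes, with a median of 0.21. Pdk4, a kinase that inhibits pyruvate dehydrogenase when fat is burned, had 120, 30, 32.7 and 58.3 CPM in advanced and 1.61, 9.73, 17.8 and 0.629 CPM in baseline libraries. The groups did not overlap but both varied widely, and the rise of 3.19 ± 0.72 (edgeR adjusted p = 0.0204) missed the threshold without advanced library 1 (0.0637) or 4 (0.0608). Angptl4, an inhibitor of lipoprotein lipase, had 12, 2.4, 1.63 and 12.2 CPM in advanced and 0.677, 1.08, 2.55 and 0.769 CPM in baseline libraries (2.63 ± 0.62, adjusted p = 0.0246, and 0.0757 and 0.111 without advanced library 1 or 4). In both genes advanced libraries 1 and 4 were the high ones. Hadhb (0.43) and Acadm (0.49), enzymes of mitochondrial beta-oxidation, and the carnitine carrier Slc25a20 (0.8) were the other members. The number of higher members was 0 without advanced library 4, 1 without baseline library 1, 2 without baseline library 2 or advanced library 1 or 3, 3 without baseline library 3, and 2 with offsets for base composition and length. Only edgeR was run with a library left out. On all 8 libraries edgeR and DESeq2 each called 5 members and limma-voom called 7. Plin2, the coat protein of lipid droplets, had 616, 360, 368 and 571 CPM in advanced and 243, 415, 411 and 134 CPM in baseline libraries, with overlapping groups (0.78 ± 0.3, adjusted p = 0.127).

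Genes that sense or make cholesterol showed no call or few. None of 25 genes of cholesterol synthesis and uptake passed with edgeR, DESeq2 or limma-voom, 3 had an unadjusted edgeR p under 0.05, and the median was -0.16. Of 20 targets of the sterol-activated receptor LXR, 1 was higher and 2 were lower (median -0.14). Over all genes 4.26% were higher and 3.85% lower. Abca1, the exporter of cholesterol to apolipoprotein A-I, had 676, 626, 604 and 517 CPM in advanced and 579, 452, 415 and 293 CPM in baseline libraries. Its groups overlapped, and the call (0.56 ± 0.15, adjusted p = 0.0402) was kept only without baseline library 1 or 4 (highest adjusted p = 0.112). Abcg1, its partner, did not pass (0.26 ± 0.34, adjusted p = 0.669). Apoc1, an apolipoprotein gene beside Apoe, was lower, with 146, 79.2, 113 and 59.7 CPM in advanced and 178, 216, 203 and 169 CPM in baseline libraries (-0.87 ± 0.2, adjusted p = 0.0232, and 0.0528 to 0.0577 without advanced library 2, 3 or 4). The fatty acid synthase Fasn was the other lower member (-0.72 ± 0.2, adjusted p = 0.0465, lost in 5 of 8 fits). Of 18 genes of TREM2-type lipid-associated macrophages, 2 were higher (Cd63, Ctsl) and 2 lower (Cd68, Apoc1), against the same shares, with a median of 0.08. Trem2 itself had 8.74 to 18.1 CPM in advanced and 6.99 to 23 CPM in baseline libraries, and Gpnmb 0.546 to 2.72 and 1.51 to 2.88 CPM. Neither passed (adjusted p = 0.882 and 0.522).

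Of 35 interferon-stimulated genes tested, 34 had a positive log2 fold change and the median was 0.6, the highest median of the lists, and 3 passed the test, against 4.26% higher over all genes. Summed over the list, advanced libraries held 2050, 3790, 2420 and 2070 CPM, against 1890, 1620, 2880 and 1290 CPM in baseline libraries. The groups overlapped, since baseline library 3 was above all advanced libraries but library 2. Ifi44 had 3.28, 49.8, 8.71 and 9.95 CPM in advanced and 2.2, 1.08, 2.45 and 0.0699 CPM in baseline libraries (3.7 ± 0.78, edgeR adjusted p = 0.0159, and 0.0608 without advanced library 2). Ifi27l2a had 57.4, 89.4, 62.6 and 72.8 CPM in advanced and 32.8, 15.7, 37.3 and 13.1 CPM in baseline libraries (1.61 ± 0.28, adjusted p = 0.00766). Bst2, tetherin, which holds budding viruses at the cell surface, had 33.3, 36.6, 25.6 and 35.3 CPM in advanced and 23.1, 20.4, 30.7 and 20.3 CPM in baseline libraries. It passed narrowly (0.56 ± 0.16, adjusted p = 0.0496) and kept its call only without baseline library 3. Irf7 (1.06, adjusted p = 0.105), Rsad2 (1.53, adjusted p = 0.122) and Oas3 (0.96, adjusted p = 0.169) are examples of members that did not pass. The number of higher members was 18 without baseline library 3, 1 without advanced library 2, 2 without any 1 of the other 6 libraries and 1 with offsets for base composition and length. In monocytes the list median was 0.01 with 1 of 35 higher, and no member passed the test of the difference in response with edgeR, against 1 with DESeq2 and 19 at an unadjusted edgeR p under 0.05. With edgeR 4 members passed it without baseline peritoneal library 3, and 1 without baseline monocyte library 4.

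The promoter of Bst2 is shown as the window of a passing member with the interferon-stimulated response element, the site bound by interferon regulatory factors, at chr8:71537423-71537722 on the minus strand of GRCm38.p6, with the matches in capitals.
Bst2: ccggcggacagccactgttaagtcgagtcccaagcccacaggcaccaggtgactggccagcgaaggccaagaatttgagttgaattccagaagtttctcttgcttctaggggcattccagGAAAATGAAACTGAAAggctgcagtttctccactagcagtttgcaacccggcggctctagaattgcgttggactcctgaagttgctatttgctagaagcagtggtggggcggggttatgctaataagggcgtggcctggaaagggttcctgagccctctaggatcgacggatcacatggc
The element was searched on both strands as GAAA, any 2 bases and GAAA, and the 2 matches in Bst2 overlap. The element occurred in 15 of the 24 tested interferon-stimulated genes with a window (62.5%), most of which did not pass. Of the passing members 2 had a window, and 1 of these, Bst2, held the element. It occurred in 3.11% of the windows of all tested genes, in 4.35% of those of all genes that rose and 2.92% of those that fell.

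Class I antigen presentation had 3 higher members of 17 tested and none lower, against 4.26% higher over all genes, with a median of 0.14. The count was 1 without baseline library 1 or 2 or advanced library 2, 3 or 4. H2-T23, a nonclassical class I molecule that presents to natural killer cell receptors, had 150, 212, 178 and 168 CPM in advanced and 116, 106, 146 and 89.1 CPM in baseline libraries, without overlap (0.72 ± 0.13, edgeR adjusted p = 0.00885). It differed from monocytes, where it had a log2 fold change of -0.27 (difference 1.05, adjusted p = 0.00845). B2m, the class I light chain (0.61 ± 0.16, adjusted p = 0.0374), and H2-D1 (0.46 ± 0.13, adjusted p = 0.0432) lost their calls in 5 and 6 of the 8 fits with 1 library left out (highest adjusted p = 0.121 and 0.134). The groups of B2m overlapped, and with offsets for base composition and length it had 0.23 (edgeR adjusted p = 0.532). Genes of this family have near-identical copies among which reads may be split.

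Of 39 ribosomal protein genes tested, 18 were higher and none lower, against 4.26% higher over all genes, 38 had a positive log2 fold change, and the median was 0.45. Their sum was 15300, 11900, 15300 and 14500 CPM in advanced and 10400, 11100, 11100 and 12200 CPM in baseline libraries, so advanced library 2 lay just below baseline library 4. Rps18 had 243, 185, 233 and 255 CPM in advanced and 130, 128, 141 and 151 CPM in baseline libraries (0.81 ± 0.13, edgeR adjusted p = 0.00549). Rpl10a (0.67 ± 0.11, adjusted p = 0.00704) and Rps6 (0.55 ± 0.1, adjusted p = 0.0105) did not overlap between groups either, and all 3 passed in each fit with 1 library left out. In monocytes 16 of the 39 were higher (median 0.29), and 2 differed in response. The number of higher members was 4 without advanced library 3, 7 to 10 without advanced library 1 or 4 or baseline library 1, 2 or 3, 30 without baseline library 4, and 11 with offsets for base composition and length. Pseudogenes of these genes may take or give reads. Oxidative phosphorylation had 2 higher of 34, Ndufa4 and Atp5c1 against 4.26% over all genes (median 0.16, with 13 of 34 higher in monocytes). The count was 0 without baseline library 1 or advanced library 3 or 4, 5 without baseline library 4, 4 without library 4 of both groups and 6 with limma-voom. Heat shock chaperones had 1 higher of 19, Hspe1, against 4.26% over all genes. Hspe1 lost its call without advanced library 3 or 4 (highest adjusted p = 0.0722).

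Endosomal, innate sensing and secreted gene groups changed in single members, against 4.26% higher and 3.85% lower over all genes. Of 33 lysosomal genes 4 were higher and 1, Cd68, was lower (median 0.12), with Scarb2, the carrier of glucocerebrosidase, at 257 to 300 CPM in advanced and 173 to 215 CPM in baseline libraries (0.58 ± 0.1, edgeR adjusted p = 0.00593). The cathepsins Ctsh (0.57) and Ctsl (0.49) and the proton pump subunit Atp6v1h (0.41) were the other higher members, and 1 higher member was left without advanced library 3. Of 23 Toll-like receptor genes, Tlr4 and Ly96, the receptor and the co-receptor MD-2 for lipopolysaccharide, were both higher. Ly96 had 42.1, 43.8, 44.1 and 43.9 CPM in advanced and 27.9, 24, 26.1 and 20.7 CPM in baseline libraries (0.9 ± 0.11, adjusted p = 0.00196). Tlr4 had 189 to 236 CPM in advanced and 132 to 176 CPM in baseline libraries (0.53 ± 0.1, adjusted p = 0.00977). Both passed in each fit with 1 library left out, but with offsets for base composition and length the call of Ly96 ended (0.44, adjusted p = 0.135). Unc93b1, the chaperone of the endosomal receptors, was lower (-0.39 ± 0.1, adjusted p = 0.0269, lost in 6 of 8 fits).

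Inflammatory cytokine and NF-kB genes had 1 lower of 24 tested, against 3.85% over all genes, the subunit Rela (-0.45 ± 0.1, edgeR adjusted p = 0.0221, lost in 4 of 8 fits with 1 library left out), and a median of -0.05. The count was 3 without baseline library 3 or 4 or without library 4 of both groups. Il1b was under the filter on low counts, with 0, 0, 0.545 and 0.452 CPM in advanced and 0.423, 0.324, 0.392 and 0 CPM in baseline libraries. Immediate-early genes, which respond within minutes to handling and stimuli, had 18 of 20 negative log2 fold changes and a median of -0.48. The list had 3 lower members, Myc (-0.88), Ier3 (-0.72) and Zfp36 (-0.96), against 3.85% lower over all genes. None of the 3 calls of this list was left without baseline library 1 or 2 or advanced library 3 or 4, and the list summed to 1600 to 2700 CPM in advanced and 2420 to 3520 CPM in baseline libraries. None of 17 genes of the unfolded protein response passed with edgeR, against 1 with DESeq2, 1 with limma-voom and 2 at an unadjusted edgeR p under 0.05 (median -0.04).

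Complement genes had 3 higher (Cfp, Cd55 and Cr1l) and 2 lower of 16 tested, with a median of -0.12. Over all genes 4.26% were higher and 3.85% lower, and the coagulation and eicosanoid counts below stand against the same shares. For complement, 0 higher members were left without baseline library 1 or advanced library 2, 3 or 4. C5ar1, the receptor of C5a, had 133 to 168 CPM in advanced and 201 to 307 CPM in baseline libraries (-0.68 ± 0.13, edgeR adjusted p = 0.011), a call kept in each fit with 1 library left out. C3ar1, the C3a receptor, was lower by less (-0.35 ± 0.1, adjusted p = 0.0448, lost in 6 of 8 fits). F7, coagulation factor VII, had 62.8, 66, 67 and 89.1 CPM in advanced and 51.8, 38.9, 44.4 and 32.1 CPM in baseline libraries (0.87 ± 0.16, adjusted p = 0.00897), and with Pros1 it made 2 higher of 15 coagulation genes (median 0.2). Of 16 genes of eicosanoid synthesis, Ltc4s, leukotriene C4 synthase, fell to 96.6 to 120 CPM in advanced libraries, against 141 to 217 CPM in baseline libraries (-0.73 ± 0.12, adjusted p = 0.00684). Ptgis, prostacyclin synthase, was higher (0.44 ± 0.11, adjusted p = 0.0275, lost in 5 of 8 fits).

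Redox and sugar metabolism changed in a few enzymes. Of 24 NRF2 and antioxidant genes 2 were higher and 1 was lower (median 0.08), against 4.26% and 3.85% over all genes, and 5 were higher and 3 lower without baseline library 4. Sod1, the cytosolic superoxide dismutase, had 87 to 101 CPM in advanced and 52.2 to 68.3 CPM in baseline libraries (0.73 ± 0.12, edgeR adjusted p = 0.00549), and the glutathione transferase Mgst1 had 169 to 227 and 120 to 136 CPM (0.76 ± 0.11, adjusted p = 0.00342). Both differed in response from monocytes, by 0.75 (adjusted p = 0.018) and 0.71 (adjusted p = 0.0418). G6pdx, the first enzyme of the pentose phosphate pathway, was lower (-0.45 ± 0.1, adjusted p = 0.0169). Of 24 glycolysis and hypoxia genes 1 was higher and 1 was lower, against the same shares. The higher member was Egln3, a prolyl hydroxylase of hypoxia-inducible factors (0.76 ± 0.21, adjusted p = 0.0485), whose groups overlapped and whose call was lost in 7 of 8 fits with 1 library left out (highest adjusted p = 0.133). Hk2, hexokinase 2, had 25.3 to 37.2 CPM in advanced and 53.8 to 77.2 CPM in baseline libraries (-0.91 ± 0.16, adjusted p = 0.00825). Among receptors, Cxcr4, which holds cells in niches rich in CXCL12, rose by 1.96 ± 0.43 (adjusted p = 0.0175), with 27.9, 12, 9.8 and 12.2 CPM in advanced and 3.13, 2.05, 8.32 and 3.35 CPM in baseline libraries, and lost its call without advanced library 1 (0.0581). The integrin Itgb7 was higher by 0.89 ± 0.18 (adjusted p = 0.0125, and 0.054 without advanced library 3), against -0.52 in monocytes.

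**Figure D4:**
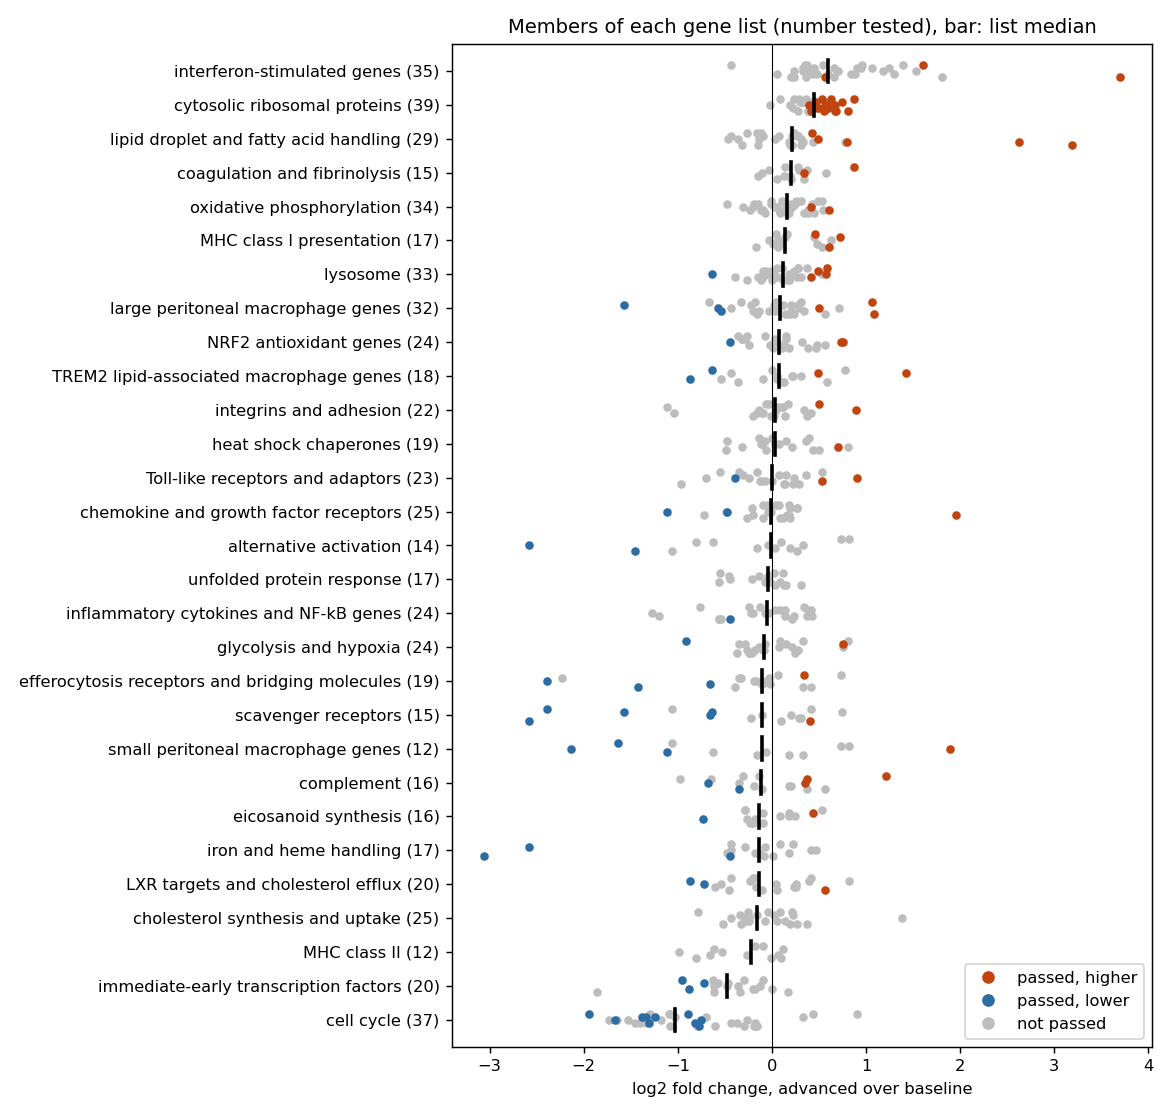
Log2 fold change of advanced over baseline for every tested member of the 29 pathway lists, ordered by list median (black bar). Orange members passed as higher, blue as lower and grey did not pass. The medians run from -1.03 (cell cycle) to 0.6 (interferon-stimulated genes), and most lists lie near 0.

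Base composition moved with the calls. Genes that rose had a median G and C share of 44.3% in their longest transcript and genes that fell one of 54.4%, against 49.2% over all tested genes. In monocytes the medians were 45.8%, 54.9% and 49.2%. With offsets for base composition and transcript length, 495 genes passed in peritoneal macrophages, 427 of them among the 857 and in the same direction, and 401 passed in monocytes. The part of base composition in single calls was not tested beyond this fit. Of the 82 called genes that the naming rule chose, 81 could be fitted with the offsets and 58 passed. Tjp1, Loxl2, Stab1, Cd163, Lyve1, Marco, Arg1, Nt5e, Ccnd1 and Mki67 passed in it, and Ifi27l2a (adjusted p = 0.06), Lrp1 and Ly96 did not.

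**Figure D5:**
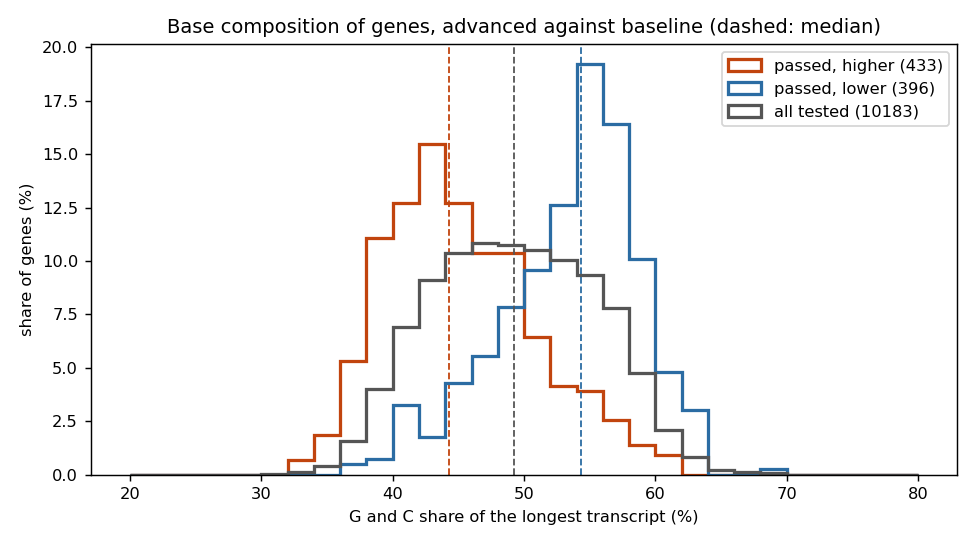
Share of genes (y axis, %) by the G and C share of their longest transcript (x axis, %), for genes that passed as higher, as lower and for all tested genes, with dashed medians at 44.3%, 54.4% and 49.2%. The higher and the lower genes lie on opposite sides of all tested genes.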

How the data were processed

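Macrophages were flow sorted from peritoneal lavage into lysis buffer, RNA was cleaned on small-input columns, and libraries were made with the Ovation SoLo kit and sequenced paired-end (NextSeq500), as given per the labels' protocols. Reads were aligned with STAR to mm10 and counted with featureCounts, per the submitters' processing notes, and the authors deposited whole-number counts for 24421 genes per library. Strandedness was not given in the sources used here, so overlapping antisense genes cannot be told apart.

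Counts were tested with edgeR 4.0.16 (quasi-likelihood, TMM scaling, low-count filter, R 4.3.3) on the 8 peritoneal libraries alone, and calls need a Benjamini-Hochberg adjusted p under 0.05. The SE of an edgeR log2 fold change was derived from the test, as its absolute value divided by the square root of the F statistic. CPM divides counts by the library total, Rn45s included. DESeq2 1.42.0, limma 3.58.1 (voom), other scalings, thinning and left-out libraries were alternatives. Offsets for base composition and length (from GENCODE vM21), and leaving out library 4 of both groups, were added after seeing the data. The fits were also run on counts simulated with edgeR's fitted dispersions. These counts held neither the skew in base composition nor libraries that stand apart, so they do not bear on calls that depend on either. Coordinates and promoters are from RefSeq GRCm38.p6.

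Text names the 12 genes per direction with the largest change among those called, without overlap and with at least 20 CPM, up to 4 called members per list, and 18 preset genes, some of which are not reported here. Other genes, such as Fn1, Cxcl13, Colec12, Top2a, Mcm4 to Mcm7, Rrm1, Rrm2, Kif11, Birc5, Msr1, Irf7, Rsad2, Oas3, Cfp and Slc25a20, were chosen after their values were seen. The members and lists were chosen with earlier results of these data known. Same-numbered libraries did not deviate together, so no pairing was used.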

Additional observations from a re-analysis of the deposited data

Results flagged for a closer look

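In 20 of the 190 groups of 4 libraries examined, 1 library lay far from the other 3, where chance gives about 1 in 20 groups. Among the advanced libraries these were C3ar1 in library 4 (440 CPM), Cxcr4 in library 1 (27.9 CPM), F7 in library 4 (89.1 CPM), Hk2 in library 4 (25.3 CPM), Ifi44 in library 2 (49.8 CPM), Ly96 in library 1 (42.1 CPM), Mcm2 in library 3 (6.54 CPM), Mki67 in library 1 (15.8 CPM), Slfn4 in library 2 (1730 CPM) and Zfp874a in library 2 (21 CPM). Among the baseline libraries these were Abcg1 in library 1 (82.3 CPM), Ccnd1 in library 4 (321 CPM), Ccr2 in library 3 (7.64 CPM), Ctsl in library 3 (91.4 CPM), Loxl2 in library 4 (4.54 CPM), Lyz2 in library 4 (16900 CPM), Pros1 in library 4 (586 CPM), Rela in library 4 (42.4 CPM) and Tjp1 in library 4 (31.4 CPM). The Rn45s share of baseline library 4 was 17.5%, against 9.4 to 10.6% in the other baseline libraries. Several flagged genes share baseline library 4, which also correlated least with the other baseline libraries.

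The response to stage differed between peritoneal macrophages and monocytes in 17 of the named genes, by edgeR's test of the difference in log2 fold change (peritoneal macrophages minus monocytes). The difference was positive for Cd209a (3.08, adjusted p = 0.0199), Cxcr4 (1.95, adjusted p = 0.0286), H2-D1 (0.75, adjusted p = 0.02), H2-T23 (1.05, adjusted p = 0.00845), Itgb7 (1.48, adjusted p = 0.00749), Lyz2 (0.85, adjusted p = 0.0379), Mgst1 (0.71, adjusted p = 0.0418), Qpct (2.11, adjusted p = 0.0224), Sod1 (0.75, adjusted p = 0.018) and Zfp874a (1.09, adjusted p = 0.0212). It was negative for C3ar1 (-1.14, adjusted p = 0.0462), Cd63 (-1.96, adjusted p = 0.0424), Ier3 (-1.79, adjusted p = 0.0125), Lcn2 (-7.68, adjusted p = 0.0193), Mcm2 (-2.05, adjusted p = 0.0396), Mcm3 (-1.79, adjusted p = 0.0116) and Mki67 (-3.45, adjusted p = 0.0455). Lcn2 was near 0 in the peritoneum, with 0 to 0.6 CPM in advanced and 1.86 to 3.53 CPM in baseline libraries, so its fitted value there rests on few reads. The number of differing genes over all genes tested was 436, and 164 without advanced monocyte library 3.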

How the results depend on the processing

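The 857 calls of the peritoneal comparison became 1349 with limma-voom, which put 58.9% of them higher against 52.5% in edgeR, 495 with offsets for base composition and length, 156 with a log2 fold limit of 1 and 86 in the fit of 12 libraries. They ranged from 266 to 1356 with 1 library left out. With size factors from DESeq2, without Rn45s, without the low-count filter (44.3% higher), with DESeq2 (1152), thinned (599) and without library 4 of both groups (931), the count stayed within 1.5 times. The 1674 monocyte calls ranged from 990 to 1808 with 1 library left out and were 401 with the offsets. The 436 differences in response were 663 with DESeq2 and 164 to 515 with 1 library left out, and the share of higher ones, 45%, ranged from 25.4% to 51.2% there. Depth is confounded with stage throughout.

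The replicate numbers did not pair the samples: same-numbered libraries correlated in their deviations from the group means at -0.17 to 0.036, and of the 8 libraries only advanced library 4 correlated best with its own number. With the replicate number as a block 486 peritoneal calls, 1314 monocyte calls and 288 differences in response (33% higher) were made.

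Of the values for single genes and lists under the alternatives, 1919 were the same, 329 list counts or untested values moved, 368 lost their call and 2 gained one, and none reversed. Of 82 named called genes, 39 kept their call in all 8 fits with 1 library left out and 19 in all alternatives but the fold limit.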

Other observations

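Several genes outside the naming rule, chosen after their values were seen, were higher at the advanced stage at low levels. Pcdh7, a protocadherin, had 11.5, 26.4, 14.2 and 14.9 CPM in advanced and 0.761, 0.432, 0.294 and 0 CPM in baseline libraries (log2 fold change 5.55 ± 0.52, edgeR adjusted p = 0.000385). Maob, a monoamine oxidase, had 7.62 to 9.29 CPM in advanced and 0.21 to 0.686 CPM in baseline libraries (4.21 ± 0.37, adjusted p = 0.000218). Tead1 (3.7) and Wwtr1 (2.3), a transcription factor and the co-activator TAZ of the Hippo pathway, were both higher, as were Flt4 (2.67), the lymphatic growth factor receptor, and the guidance genes Robo2 (2.28) and Sema5a (1.98). All of these had no overlap between groups and passed with offsets for base composition and length as well.

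Among low genes that fell, also chosen after their values were seen, Mbnl3, a splicing regulator, had 0.545 to 1.8 CPM in advanced and 5.84 to 9.36 CPM in baseline libraries (-2.81 ± 0.39, edgeR adjusted p = 0.00322). Uhrf1 (-1.93), Clspn (-2.1) and Pold2 (-1.43), genes of DNA replication and its checkpoints, were lower too. P2ry6 (-2.18), a receptor for UDP, had 0.6 to 3.81 CPM in advanced and 6.57 to 14.9 CPM in baseline libraries.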
